A study of Mus musculus with 20 samples.

Results

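The genes described here are 47 genes of the DNA replication machinery, followed across 4 treatment groups of CD44+CD8+ T cell samples from tumour-bearing mouse lung. They were chosen by name, from the proteins that license and open replication origins, copy DNA, join the new strands, supply nucleotides, restore chromatin and DNA methylation behind the fork, and start or guard S phase. Each gene was measured by the probe set with the highest mean log2 value over all 20 arrays among the probe sets listed with that gene symbol alone. This gave values for 46 of the 47 genes, out of 17097 genes in all. Chaf1a, the large subunit of chromatin assembly factor 1, had no probe set listed with its symbol alone.

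Replication is prepared when the origin recognition complex, Cdc6 and Cdt1 load the Mcm2 to Mcm7 ring onto DNA. At the start of S phase, cyclin E with its kinase and other kinases help turn the ring into a moving helicase together with Cdc45 and the GINS complex, and DNA polymerases then copy both strands. Resting T cells hold little of this machinery, activated T cells build it before they divide, and many of its genes are targets of E2F transcription factors, which the retinoblastoma family holds in check.

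All samples were CD44+CD8+ cells, labelled as effector T cells, purified from lungs of mice that carried 4T1 tumours, a mouse mammary carcinoma line, and every group was treated through the nose. Saline-CTRL (n = 5) received saline, and SD-101 (n = 6) received SD-101, a ligand of the DNA sensor TLR9. SD-101+anti-PD-1 (n = 5) received SD-101 with an antibody against the inhibitory receptor PD-1. The remaining samples (n = 4), labelled SD-101+anti-PD-1+a-CD4 and called the triple group here, received a-CD4 as well, which the labels do not describe further. Mouse strain, age, doses and times are not given in the labels used here, and neither is the number of mice behind a sample. The p-values below therefore cover sample-to-sample spread of whatever origin, which may be technical.

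The sorted cell type was visible on all 20 arrays: the CD8 genes Cd8a and Cd8b1 read 9.45 to 11.66 and 9.68 to 11.43 on the log2 scale, while Cd4 read 2.69 to 3.51. Transcripts of other lung cells were present throughout, for example Sftpc of alveolar type 2 cells at 12.53 to 13.44. Triple replicate 2 stood apart, with the lowest mean over 11 T cell identity genes (8.20) and the highest Krt8 (11.70) and Krt18 (11.54), keratins of simple epithelia and carcinomas. Other epithelial genes went both ways on this array. Krt7, Krt14 and Cldn4 were also the highest of all arrays, while Krt19, Cdh1, Elf3, Sftpc and Scgb1a1 were the lowest of the triple group. The mean over 12 such genes was 8.78 on it, and up to 9.07 with SD-101+anti-PD-1. Saline-CTRL replicate 1 had the next lowest T cell identity mean (8.72) and the highest mean of 8 neutrophil genes (10.16). For the triple group, the counts of called genes and the median differences are given below with and without these arrays. Single genes are mostly given from the fit on all 20 arrays only.

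The replication genes were highest in the triple group. Over the 46 measured genes, the mean log2 value of an array was 7.60, 8.22, 7.67 and 7.67 in the triple group. The same mean was 6.52 to 7.31 on the saline arrays, 6.78 to 7.43 with SD-101 and 6.87 to 7.32 with SD-101+anti-PD-1. The triple arrays therefore did not overlap with any other group in this mean, and the triple group had the highest group mean for 46 of 46 genes. Saline-CTRL had the lowest group mean for 34 genes, SD-101+anti-PD-1 for 11 and SD-101 for 1. How often each group was highest or lowest over all genes was not counted. In sorted samples measured whole, more cells in S phase, more RNA per cell and RNA of other dividing cell types cannot be told apart.

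Against saline, 32 of 46 replication genes rose in the triple group at a Benjamini-Hochberg adjusted p under 0.05 in limma, and 0 fell, where 4.09% of all genes rose and 3.03% fell. The median log2 difference was 0.86 over the replication genes and 0.04 over all 17097 genes. All 46 differences were positive, as were 56.7% of those of all genes. Against SD-101+anti-PD-1, 15 of 46 rose in the triple group and 0 fell, where 0.948% of all genes rose and 1.18% fell. The median log2 difference was 0.71, against 0.00 over all genes, and again 46 of 46 were positive, against 50.5% of all genes. For 31 of 46 genes all 4 triple arrays lay above all 5 saline arrays, which held for 4.84% of all genes. The same number, 31, lay above all 5 SD-101+anti-PD-1 arrays (3.92% of all genes), and 20 lay above all 16 arrays of the other groups (1.08% of all genes).

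How far these counts rest on single arrays differed between the comparisons. Without triple replicate 2, 21 of 46 genes rose against saline and 0 against SD-101+anti-PD-1, where the lowest adjusted p in limma was then 0.0573. The medians without this array and Saline-CTRL replicate 1 were 0.71 and 0.60 on the log2 scale. Against saline the count was also 21 without Saline-CTRL replicate 3, and 21 of the 32 genes passed the test in each of the 9 fits that left out 1 array. The other 11, which lost it in at least 1 fit, were Ccne2, Cdc45, Gins1, Gins2, Mcm3, Mcm4, Mcm6, Mcm10, Pola1, Pole2 and Rfc3. Against SD-101+anti-PD-1, 0 of the 15 genes passed in every such fit. The count there was 1, 2 and 7 without replicates 1, 4 and 5 of SD-101+anti-PD-1, and 3 and 8 without triple replicates 1 and 4. With the means of the epithelial, B cell, macrophage and endothelial marker lists as 4 covariates together, 0 replication genes passed in any comparison in limma, and at most 3 of 17097 genes did. The medians in that fit were 0.79 for the triple group against saline and 0.74 against SD-101+anti-PD-1. The mean of the endothelial list was 6.29 to 7.74 in the triple group. It was 7.77 to 9.88 with saline and 5.01 to 6.2 with SD-101+anti-PD-1. These ranges do not overlap, so that fit cannot separate the marker scores from the treatments, and no conclusion is drawn from its counts.

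**Figure D1:**
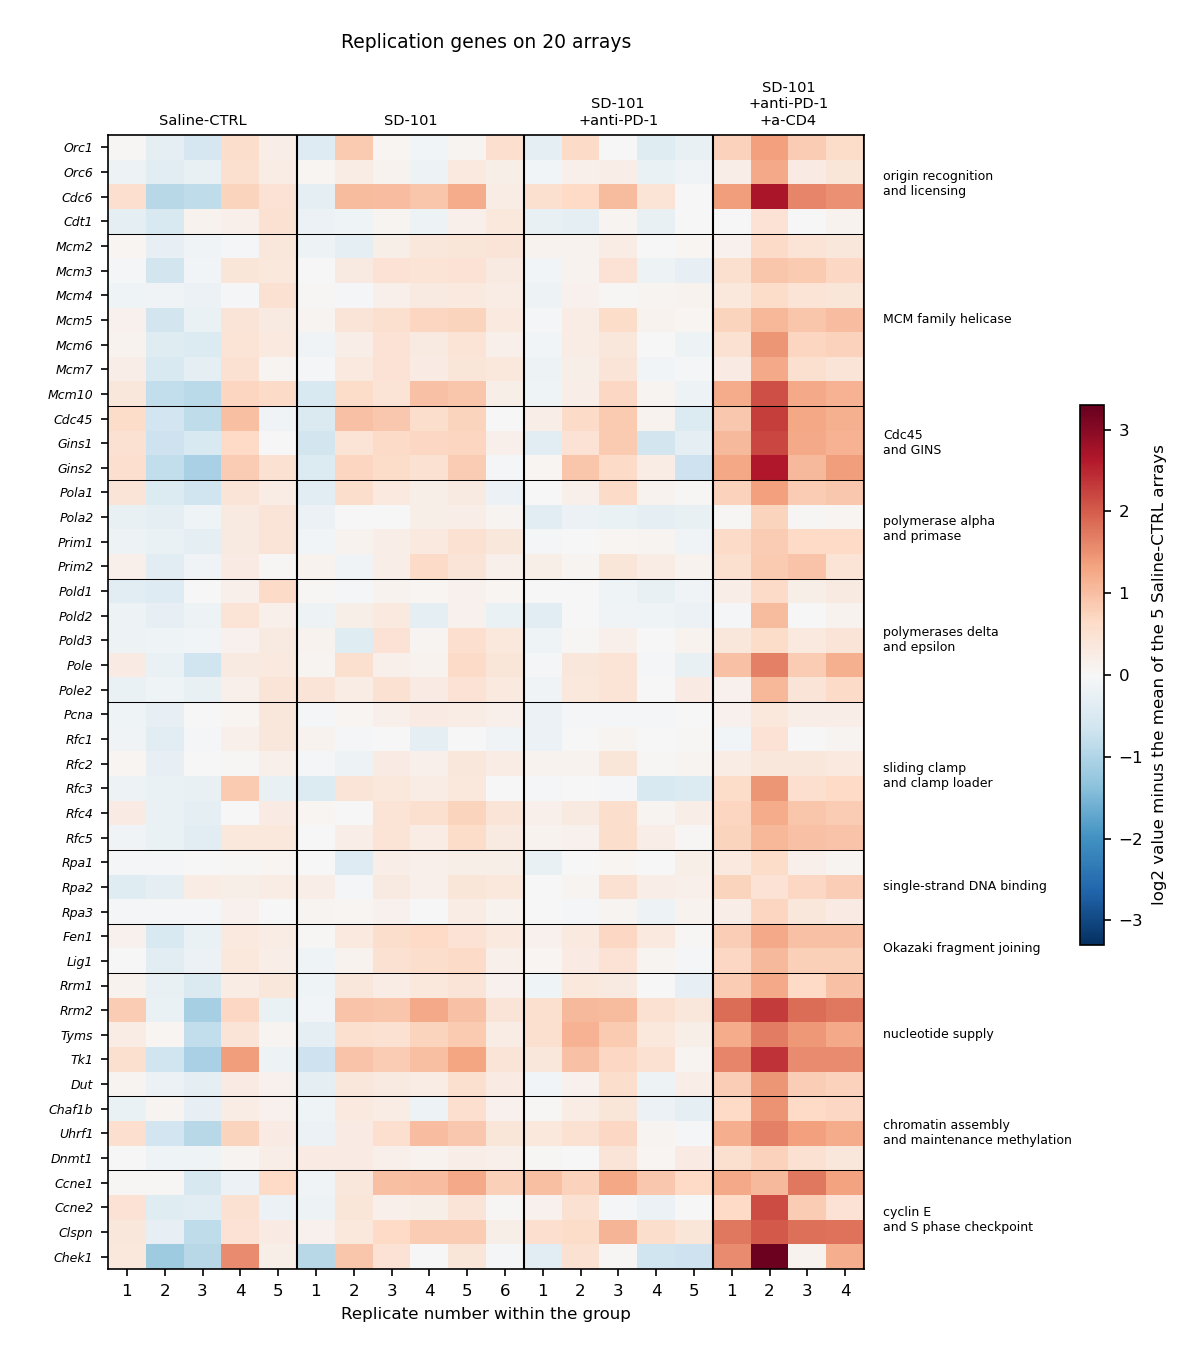
Log2 value of each of 46 replication genes (rows, grouped by role) on each of 20 arrays (columns, by group and replicate number), shown as the difference from the mean of the 5 Saline-CTRL arrays. The 4 triple columns on the right are the reddest for most rows, replicate 2 most of all, while Saline-CTRL replicates 2 and 3 are the bluest of their group.

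The arrays of a group also differed among themselves in a shared way. Triple replicate 2 was the highest triple array for 42 of 46 genes, and triple replicate 1 the lowest for 26. Among the saline arrays, replicates 2 and 3 were the lowest for 21 and 22 genes, and replicates 4 and 5 the highest for 25 and 17. SD-101 replicate 1 was the lowest of its 6 arrays for 30 genes. SD-101+anti-PD-1 replicate 3 was the highest of its 5 for 29.

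Promoter sequence was looked up for the genes because many replication genes are textbook E2F targets. RefSeq promoter windows of build GRCm38.p6, from 250 bases before to 50 after a gene's start, were found for 40 of the 47 genes, in 48 windows. The strings TTTCCCGC, TTTCGCGC, TTTGCCGC and TTTGGCGC, forms of the E2F motif, were searched on both strands. At least 1 of them was present in 16 of 48 windows (33.3%), against 2.26% of all 32851 windows of the same length. The stretches below show matches in capitals with their flanks, for genes of the licensing, helicase, polymerase and clamp loader steps, written 5′ to 3′ on the gene's strand. In 5 of these genes (Mcm6, Mcm5, Cdc6, Pola1 and Rfc3) transcript levels rose in the triple group against saline, and in Orc1 and Mcm7 they did not pass the test.
Mcm6 (chr1:128359720-128359840, minus strand): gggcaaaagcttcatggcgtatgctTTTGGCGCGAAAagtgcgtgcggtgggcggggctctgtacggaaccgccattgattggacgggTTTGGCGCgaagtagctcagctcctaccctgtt
Mcm5 (chr8:75109331-75109392, plus strand): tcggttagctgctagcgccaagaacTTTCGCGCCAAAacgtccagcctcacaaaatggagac
Cdc6 (chr11:98907988-98908045, plus strand): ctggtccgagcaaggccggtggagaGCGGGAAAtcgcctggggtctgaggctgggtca
Pola1 (chrX:93632261-93632318, minus strand): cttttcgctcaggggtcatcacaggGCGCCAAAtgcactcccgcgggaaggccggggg
Rfc3 (chr5:151651209-151651243, minus strand): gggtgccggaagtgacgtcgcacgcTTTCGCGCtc
Orc1 (chr4:108579402-108579453, plus strand): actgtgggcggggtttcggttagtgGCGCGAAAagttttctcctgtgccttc
Mcm7 (chr5:138172016-138172073, minus strand): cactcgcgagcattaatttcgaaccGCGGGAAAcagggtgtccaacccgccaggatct
Mcm6 held 3 matches, 2 of which overlap on opposite strands, and Mcm5 held 2 that overlap in the same way. Among the 26 genes with a window that rose in at least 1 comparison, 11 held a match, and so did 5 of 13 measured genes that did not, namely Orc1, Cdt1, Mcm7, Pold1 and Pold3. A match is a string of letters in this window and was not tested for binding. The CCAAT string, searched alike, was in 27 of 48 windows (56.2%) and in 37.4% of all windows.

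Of 4 licensing factors 1 rose. Cdc6, which helps load the Mcm ring, rose 3.48-fold in the triple group against saline, while Cdt1, its partner in loading, had the second smallest difference of all 46 genes. Cdc6 read 5.80, 4.33, 4.43, 6.0 and 5.73 on the 5 saline arrays and 4.95, 6.22 and 6.49 as lowest, median and highest of the SD-101 arrays. It read 5.80, 5.92, 6.29, 5.70 and 5.25 with SD-101+anti-PD-1 and 6.64, 7.96, 6.87 and 6.76 in the triple group. All 4 triple arrays were above the 16 others, and the log2 difference from saline was 1.80 ± 0.39 (SE; limma adjusted p = 0.00811). Against SD-101+anti-PD-1 it was 1.27 (adjusted p = 0.0915), which did not pass the test.

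Cdt1 read 9.17, 8.96, 9.58, 9.63 and 9.95 with saline and 9.27, 9.43 and 9.81 as lowest, median and highest with SD-101. Its values were 9.22, 9.17, 9.56, 9.20 and 9.46 with SD-101+anti-PD-1 and 9.46, 9.94, 9.43 and 9.58 in the triple group. The groups overlapped widely, and the log2 difference between triple and saline was 0.15 (95% interval -0.22 to 0.51, limma adjusted p = 0.706). Orc1 and Orc6, subunits of the origin recognition complex, differed by 0.88 and 0.54 between the same groups, with adjusted p = 0.0557 and 0.128 in limma. The Orc1 probe set was dim, with a mean of 3.68 on a scale whose lowest value was 1.78.

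In the helicase group, 5 of 7 genes rose in the triple group against saline and 2 of 7 against SD-101+anti-PD-1. Mcm5, a subunit of the Mcm2 to Mcm7 ring, read 7.72, 6.97, 7.36, 8.01 and 7.88 on the saline arrays and 7.69, 8.07 and 8.32 as lowest, median and highest with SD-101. It read 7.55, 7.83, 8.19, 7.69 and 7.65 with SD-101+anti-PD-1 and 8.32, 8.68, 8.49 and 8.59 in the triple group. The triple arrays lay above the saline and SD-101+anti-PD-1 arrays but the lowest of them fell within the SD-101 range. The log2 difference was 0.93 ± 0.19 (SE) from saline and 0.74 from SD-101+anti-PD-1, with limma adjusted p = 0.00516 and 0.0468. Of the other ring subunits, Mcm3, Mcm4 and Mcm6 rose against saline by 0.75, 0.46 and 0.85. Mcm2 and Mcm7 differed by 0.40 and 0.62 without passing (limma adjusted p = 0.137 and 0.0772). Mcm10, which shares the name but helps activate the helicase and is no ring subunit, had the largest difference of the 7, 1.44.

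Cdc45 and GINS complete the active helicase, and all 3 of their measured genes rose in the triple group against saline, by 1.40 for Cdc45, 1.42 for Gins1 and 1.59 for Gins2 on the log2 scale. Their standard errors were 0.39, 0.36 and 0.43, and all 3 lost the call without triple replicate 2. Gins1 read 6.25, 5.06, 5.22, 6.40 and 5.75 on the saline arrays and 5.12, 6.28 and 6.44 as lowest, median and highest with SD-101. It read 5.38, 6.22, 6.61, 5.14 and 5.40 with SD-101+anti-PD-1 and 6.82, 7.94, 6.99 and 6.87 in the triple group. All 4 triple arrays exceeded the other 16, with replicate 2 far above the rest of its group. Gins1 also rose against SD-101+anti-PD-1, by 1.40 (limma adjusted p = 0.047).

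Polymerase alpha with primase starts every new strand, and 3 of its 4 genes rose in the triple group against saline. Prim1, the catalytic primase subunit, read 7.17, 7.13, 7.02, 7.65 and 7.77 with saline and 7.26, 7.62 and 7.85 as lowest, median and highest with SD-101. With SD-101+anti-PD-1 it read 7.32, 7.35, 7.42, 7.44 and 7.22, and in the triple group 7.98, 8.18, 8.01 and 8.02. The 4 triple arrays were the highest of all 20, and the log2 difference was 0.70 ± 0.14 (SE) from saline and 0.69 from SD-101+anti-PD-1 (limma adjusted p = 0.00558 and 0.0178). Pola1, the polymerase subunit, and Prim2, the large primase subunit, rose against saline by 0.96 and 0.69.

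Pola2, the accessory subunit of the same complex, did not pass the test in either comparison. It read 7.30, 7.23, 7.41, 7.86 and 7.97 with saline, 7.37, 7.60 and 7.77 as lowest, median and highest with SD-101, 7.17, 7.35, 7.34, 7.23 and 7.32 with SD-101+anti-PD-1 and 7.60, 8.29, 7.59 and 7.63 in the triple group. Only triple replicate 2 was above the highest saline array, and the log2 difference was 0.22 (95% interval -0.11 to 0.56, limma adjusted p = 0.476). All 4 triple arrays were above all SD-101+anti-PD-1 arrays, with a difference of 0.49 (limma adjusted p = 0.109, exact permutation p = 0.0159, the smallest possible here).

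Of 5 genes of the polymerases that extend the strands, 2 rose in the triple group against saline, Pole and Pole2. Pole is the catalytic subunit of the leading-strand polymerase epsilon, and Pole2 its accessory subunit. Pole read 5.64, 5.14, 4.71, 5.66 and 5.69 on the saline arrays and 5.45, 5.65 and 5.99 as lowest, median and highest with SD-101. It read 5.33, 5.75, 5.82, 5.33 and 5.12 with SD-101+anti-PD-1 and 6.34, 7.04, 6.21 and 6.54 in the triple group. The triple arrays were the 4 highest of the 20, with log2 differences of 1.16 ± 0.21 (SE) from saline and 1.06 from SD-101+anti-PD-1 (limma adjusted p = 0.00289 and 0.0178). Pole2 rose against saline by 0.57 with an adjusted p of 0.049 in limma, and passed in 3 of the 9 fits that left out 1 array.

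Pold2, an accessory subunit of polymerase delta, read 7.63, 7.53, 7.63, 8.27 and 7.96 with saline and 7.48, 7.80 and 8.12 as lowest, median and highest with SD-101. It read 7.44, 7.79, 7.70, 7.68 and 7.60 with SD-101+anti-PD-1 and 7.76, 8.84, 7.81 and 7.92 in the triple group. Triple replicates 1, 3 and 4 lay within the saline range, and the log2 difference was 0.27 (limma adjusted p = 0.485). Pold1, the catalytic subunit, and Pold3 differed from saline by 0.34 and 0.43 (adjusted p = 0.237 and 0.1). For Pold3 all 4 triple arrays nevertheless lay above all saline and all SD-101+anti-PD-1 arrays, which they did not for Pole2. Differences between the polymerases were not tested.

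Within the clamp loader, which opens the Pcna ring and closes it around DNA, 3 of 5 subunits rose in the triple group in both comparisons. Rfc5 read 7.05, 6.95, 6.82, 7.51 and 7.52 with saline and 7.16, 7.45 and 7.78 as lowest, median and highest with SD-101. It read 7.30, 7.31, 7.75, 7.40 and 7.21 with SD-101+anti-PD-1 and 7.92, 8.28, 8.15 and 8.10 in the triple group. All triple arrays were above all others, by 0.94 ± 0.16 (SE) from saline and 0.72 from SD-101+anti-PD-1 in log2 means (limma adjusted p = 0.00167 and 0.0239).

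Rfc4 read 6.93, 6.44, 6.37, 6.69 and 6.93 with saline, 6.69, 7.11 and 7.40 as lowest, median and highest with SD-101, 6.84, 6.97, 7.25, 6.77 and 6.89 with SD-101+anti-PD-1 and 7.39, 7.89, 7.59 and 7.51 in the triple group. Its triple arrays lay above the saline and SD-101+anti-PD-1 arrays and met the top of the SD-101 range, with a log2 difference from saline of 0.92 (limma adjusted p = 0.00201). Rfc3 read 6.28, 6.22, 6.19, 7.30 and 6.20 with saline, 6.0, 6.74 and 6.87 as lowest, median and highest with SD-101, 6.40, 6.46, 6.39, 5.95 and 5.98 with SD-101+anti-PD-1 and 7.05, 7.89, 6.99 and 7.09 in the triple group. Saline-CTRL replicate 4 was above 3 of the triple arrays, and the differences were 0.81 from saline and 1.02 from SD-101+anti-PD-1 (limma adjusted p = 0.0461 and 0.0357). Of the 9 fits that left out 1 array, Rfc3 passed in 1 against saline and in 3 against SD-101+anti-PD-1. The exact permutation p against saline was 0.0635.

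Rfc1, the large subunit of the loader, had the smallest difference of all 46 genes. It read 7.44, 7.23, 7.50, 7.74 and 7.93 with saline and 7.27, 7.54 and 7.68 as lowest, median and highest with SD-101, then 7.37, 7.58, 7.67, 7.54 and 7.61 with SD-101+anti-PD-1 and 7.48, 8.06, 7.59 and 7.67 in the triple group. The log2 difference from saline was 0.13 (95% interval -0.15 to 0.41, limma adjusted p = 0.65). Rfc2, a small subunit, read 8.50, 8.16, 8.42, 8.46 and 8.60 with saline and 8.27, 8.64 and 8.80 as lowest, median and highest with SD-101. It read 8.53, 8.53, 8.84, 8.47 and 8.51 with SD-101+anti-PD-1 and 8.66, 8.80, 8.81 and 8.76 in the triple group, a difference of 0.33 from saline (limma adjusted p = 0.0867). The clamp itself, Pcna, differed by 0.24 from saline and 0.29 from SD-101+anti-PD-1 without passing (limma adjusted p = 0.191 and 0.133). Pcna was also the brightest of the 46 genes, with a mean of 11.19. Brighter genes differed less: the median difference from saline was 0.62 for the 23 brighter and 1.03 for the 23 dimmer genes. The reason for this was not tested.

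**Figure D2:**
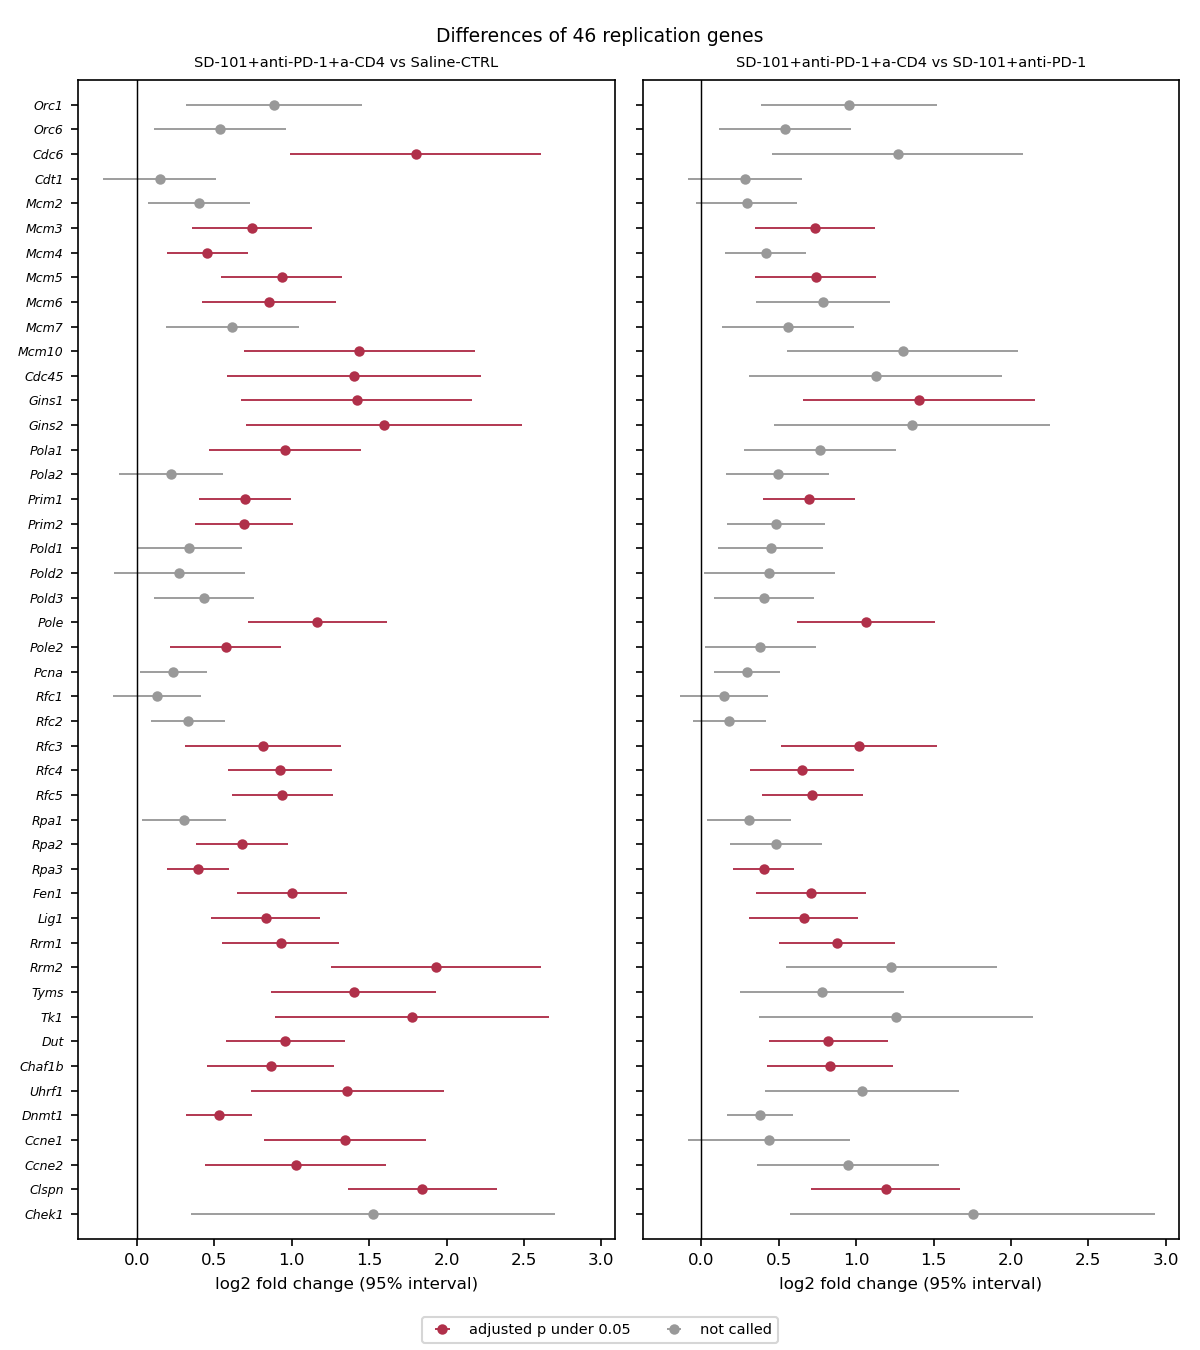
Log2 fold change with its 95% interval from the limma fit for 46 replication genes, triple group against Saline-CTRL (left) and against SD-101+anti-PD-1 (right). Red points passed an adjusted p of 0.05, 32 on the left and 15 on the right, and every point lies to the right of 0.

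Replication protein A covers single-stranded DNA, and 2 of its 3 subunits rose in the triple group against saline. Rpa2, the middle subunit, read 7.08, 7.18, 7.70, 7.66 and 7.70 with saline and 7.40, 7.72 and 7.87 as lowest, median and highest with SD-101. It read 7.49, 7.55, 7.96, 7.69 and 7.63 with SD-101+anti-PD-1 and 8.19, 7.94, 8.16 and 8.28 in the triple group. Triple replicate 2 was here the lowest of its group, below SD-101+anti-PD-1 replicate 3, and the log2 difference from saline was 0.68 ± 0.14 (SE; limma adjusted p = 0.00648). Rpa3 rose in both comparisons, by 0.39 and 0.40, and Rpa1 differed by 0.30 from saline (limma adjusted p = 0.184).

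Both genes that finish Okazaki fragments, the pieces of the lagging strand, rose in the triple group in both comparisons. Fen1, the nuclease that trims the flap, read 7.47, 6.83, 7.13, 7.65 and 7.59 with saline and 7.38, 7.74 and 8.0 as lowest, median and highest with SD-101. It read 7.46, 7.66, 8.01, 7.65 and 7.37 with SD-101+anti-PD-1 and 8.16, 8.59, 8.30 and 8.31 in the triple group. Lig1, the ligase that seals the nick, read 7.67, 7.32, 7.50, 8.03 and 7.90 with saline and 7.54, 8.01 and 8.32 as lowest, median and highest with SD-101. It read 7.74, 7.95, 8.15, 7.78 and 7.65 with SD-101+anti-PD-1 and 8.38, 8.76, 8.46 and 8.46 in the triple group. For both genes all 4 triple arrays exceeded the other 16. Against saline the log2 differences were 1.0 ± 0.17 and 0.83 ± 0.17 (SE), with limma adjusted p = 0.00182 and 0.0053. Against SD-101+anti-PD-1 they were 0.71 and 0.66 (adjusted p = 0.0376 and 0.0468).

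All 5 nucleotide supply genes rose in the triple group against saline, with a median log2 difference of 1.40. Rrm2, the small subunit of the reductase that makes deoxyribonucleotides, had the largest difference of the 46 genes, 3.82-fold. It read 8.10, 7.04, 6.18, 7.94 and 7.05 with saline and 7.17, 8.20 and 8.51 as lowest, median and highest with SD-101. It read 7.80, 8.33, 8.30, 7.77 and 7.64 with SD-101+anti-PD-1 and 9.11, 9.56, 9.11 and 9.0 in the triple group. All triple arrays were above the other 16, by 1.93 ± 0.32 (SE) from saline in log2 means (limma adjusted p = 0.00177). Against SD-101+anti-PD-1 the difference was 1.23 (adjusted p = 0.0548), just short of the threshold.

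Rrm1, the large subunit of the reductase, read 8.30, 7.94, 7.70, 8.44 and 8.56 with saline and 8.04, 8.48 and 8.61 as lowest, median and highest with SD-101. It read 8.05, 8.54, 8.48, 8.21 and 7.92 with SD-101+anti-PD-1 and 9.03, 9.43, 8.85 and 9.16 in the triple group, where it rose in both comparisons, by 0.93 and 0.88 (limma adjusted p = 0.00396 and 0.0181). Rrm1 thus rose by fewer log2 units against saline than Rrm2, a difference between the genes that was not tested. Tyms, which makes thymidylate, read 7.60, 7.42, 6.56, 7.80 and 7.46 with saline and 7.05, 7.88 and 8.24 as lowest, median and highest with SD-101. It read 7.91, 8.51, 8.24, 7.73 and 7.56 with SD-101+anti-PD-1, where replicate 2 came near the lowest triple array, and 8.59, 9.06, 8.79 and 8.63 in the triple group. Its log2 difference was 1.40 ± 0.25 (SE) from saline (limma adjusted p = 0.00263) and 0.78 from SD-101+anti-PD-1 (adjusted p = 0.109).

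Dut, which removes dUTP so that uracil is kept out of DNA, read 7.71, 7.44, 7.35, 7.91 and 7.77 with saline and 7.34, 7.92 and 8.16 as lowest, median and highest with SD-101. It read 7.55, 7.77, 8.21, 7.48 and 7.86 with SD-101+anti-PD-1 and 8.44, 9.10, 8.44 and 8.40 in the triple group, above the 16 other arrays. It rose by 0.96 from saline and 0.82 from SD-101+anti-PD-1 (limma adjusted p = 0.00383 and 0.0272). Tk1, the thymidine kinase of dividing cells, rose by 1.78 from saline (adjusted p = 0.0151).

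Of the genes that restore chromatin and methylation behind the fork, all 3 measured rose in the triple group against saline. Dnmt1, which copies DNA methylation onto the new strand, read 8.28, 8.15, 8.15, 8.39 and 8.51 with saline and 8.42, 8.50 and 8.57 as lowest, median and highest with SD-101. It read 8.34, 8.29, 8.71, 8.36 and 8.56 with SD-101+anti-PD-1, where replicate 3 was above triple replicate 4, and 8.82, 9.04, 8.79 and 8.66 in the triple group. The log2 difference from saline was small and precise, 0.53 ± 0.10 (SE; limma adjusted p = 0.00368). Centring each array on its median took this gene's difference to 0.45, no longer past the threshold. Uhrf1, which guides Dnmt1 to new DNA, rose by 1.36, and Chaf1b, a subunit of chromatin assembly factor 1, by 0.86 (adjusted p = 0.00932 and 0.0113).

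Cyclin E and checkpoint genes included the gene of lowest adjusted p. Clspn, the adaptor through which stalled forks activate Chek1, read 5.09, 4.44, 3.88, 5.19 and 4.99 with saline and 4.87, 5.23 and 5.56 as lowest, median and highest with SD-101. It read 5.26, 5.32, 5.85, 5.29 and 5.13 with SD-101+anti-PD-1 and 6.47, 6.73, 6.54 and 6.50 in the triple group. The triple arrays were close together and above the 16 others. The log2 difference was 1.84 ± 0.23 (SE) from saline, 3.59-fold, and 1.19 ± 0.23 from SD-101+anti-PD-1 (limma adjusted p = 0.000342 and 0.0145). An exact permutation test of the triple against the saline arrays gave p = 0.0159 (2-sided, unadjusted), the smallest that 4 against 5 arrays can give.

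Chek1, the checkpoint kinase itself, varied widely within groups. It read 5.53, 4.02, 4.27, 6.76 and 5.38 with saline and 4.28, 5.39 and 6.10 as lowest, median and highest with SD-101. It read 4.83, 5.70, 5.24, 4.54 and 4.51 with SD-101+anti-PD-1 and 6.74, 8.43, 5.31 and 6.38 in the triple group. Triple replicate 3 lay inside the saline range and Saline-CTRL replicate 4 above 3 of the triple arrays, so the difference of 1.52 ± 0.56 (SE) did not pass (limma adjusted p = 0.115). The difference from SD-101+anti-PD-1 was 1.75, the largest of the 46 genes there, also without passing (adjusted p = 0.105).

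Ccne1, one of the 2 cyclin E genes, was the 1 replication gene that rose in a comparison without the triple group. It read 4.61, 4.60, 4.06, 4.39 and 5.23 with saline and 4.46, 5.47 and 5.82 as lowest, median and highest with SD-101. It read 5.56, 5.33, 5.86, 5.47 and 5.23 with SD-101+anti-PD-1 and 5.84, 5.64, 6.31 and 5.91 in the triple group. The SD-101+anti-PD-1 arrays were all at or above the highest saline array and overlapped with the triple arrays. Against saline the log2 difference was 0.91 ± 0.24 (SE) with SD-101+anti-PD-1 and 1.35 ± 0.25 in the triple group (limma adjusted p = 0.0265 and 0.00309). Between the triple group and SD-101+anti-PD-1 it was 0.43 (adjusted p = 0.39). Ccne2, the other cyclin E gene, rose against saline in the triple group by 1.03, on a dim probe set with a mean of 3.22. Without triple replicate 2 its difference was 0.65 and no longer passed.

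**Figure D3:**
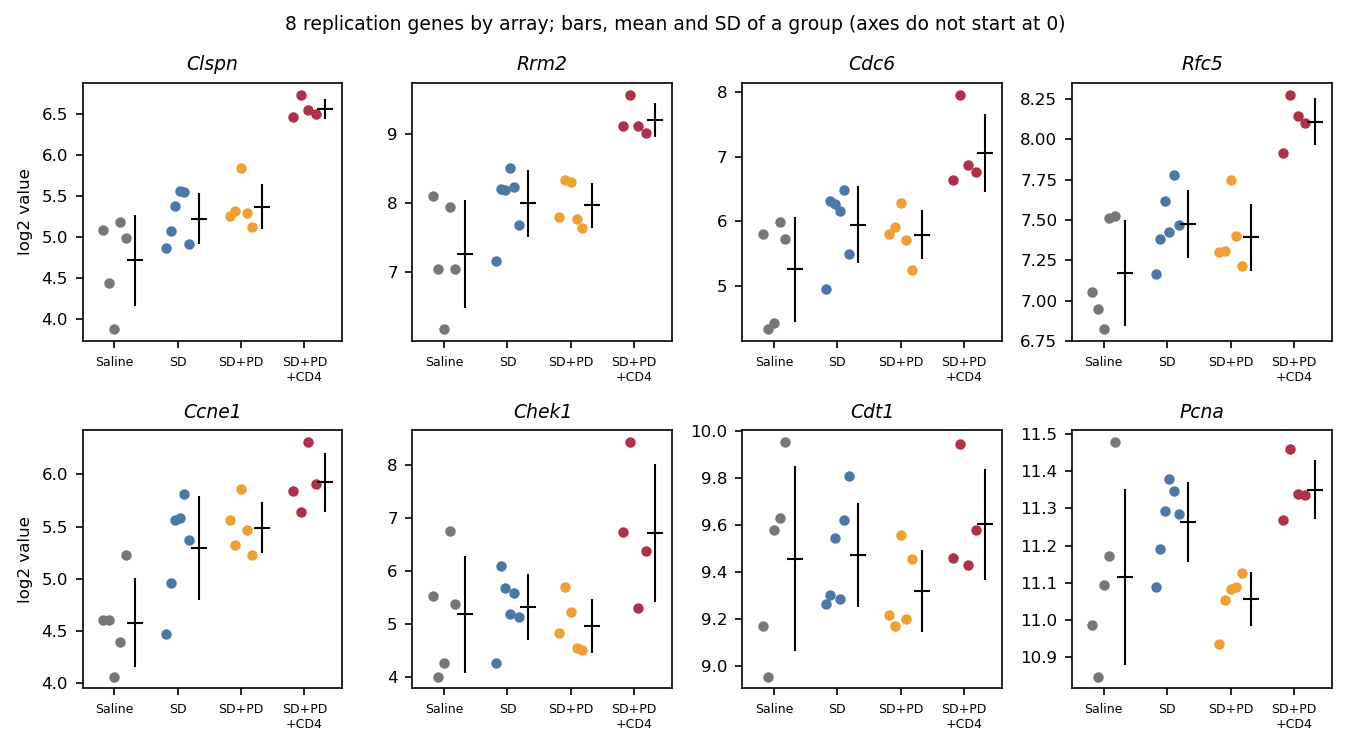
Log2 value of 8 replication genes on each array (points) in the 4 groups, with the mean and SD of each group (black). SD, PD and CD4 in the axis labels stand for SD-101, anti-PD-1 and a-CD4. Clspn, Rrm2, Cdc6 and Rfc5 are higher on all 4 triple arrays than on any other, Ccne1 is already high with SD-101+anti-PD-1, and for Chek1, Cdt1 and Pcna the triple arrays overlap with the saline arrays.

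SD-101 alone left the replication genes short of any call. Against saline 0 of 46 rose and 0 fell in limma, where 0.298% of all genes rose and 0.0351% fell. At an unadjusted p under 0.05 in limma there were 9 of the 46 genes, and 1414 of all 17097 genes. With array weights 1 replication gene was called. Still, 44 of 46 differences were positive, as were 53.2% of those of all genes. The median was 0.24 on the log2 scale against 0.01 over all genes. The largest were Rrm2 at 0.73 (limma adjusted p = 0.486) and Ccne1 at 0.71 (adjusted p = 0.314), and the lowest were Rfc1 at -0.05 and Pold2 at -0.01. The ranges of the 2 groups overlapped for all of these genes.

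With SD-101+anti-PD-1 against saline, 1 of 46 replication genes rose (2.17%) and 0 fell, where 3.47% of all genes rose and 2.15% fell. Of the 46 differences 34 were positive (73.9%), as were 56.5% of those of all genes. The median difference was 0.11, against 0.03 over all genes, and had no settled direction. Array medians over all genes exceeded those of the saline arrays by 0.14, and after centring the arrays on them the median of the replication genes was -0.03. Ccne1 was then no longer called, at 0.77. It also lost the call without Saline-CTRL replicate 3 or 4 and without SD-101+anti-PD-1 replicate 1, 3 or 4, with adjusted p of 0.0570 to 0.0903 in limma. The highest differences after Ccne1 were Rrm2 at 0.71 (adjusted p = 0.212), Clspn at 0.65 (adjusted p = 0.0891) and Tyms at 0.62 (adjusted p = 0.151). Pola2 at -0.27 and Chek1 at -0.23 were the lowest.

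Adding anti-PD-1 to SD-101 gave 0 calls of 46 in either direction in limma, where 3.52% of all genes rose and 1.25% fell. There were 2 of the 46 genes at an unadjusted p under 0.05, Pola2 at -0.33 and Pcna at -0.21, and 3122 of all 17097 genes. With array weights 2 replication genes were called, and 1 with only these 2 groups in the fit. The median difference was -0.14, against 0.01 over all genes, and 40 of 46 were negative, as were 8228 of all 17097. Array medians differed by 0.12 in the opposite direction. Ccne1 at 0.20 and Tyms at 0.19 were the highest, and Chek1 at -0.37 was the lowest.

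Other probe sets of the same genes mostly moved alike. There were 38 further probe sets for 27 of the genes, which were dimmer by the rule. In the triple group 33 of them were higher than with saline and 5 lower, with a median of 0.38 on the log2 scale, and 32 were higher than with SD-101+anti-PD-1, with a median of 0.36. The 5 below saline belonged to Chaf1b, Chek1, Pola2, Pole2 and Tyms. They were dim, with means of 2.70, 2.59, 2.95, 2.505 and 2.66 on a scale whose lowest value was 1.78. Their differences from saline were small, at -0.024, -0.031, -0.047, -0.015 and -0.001. For Chek1 the 4 other probe sets differed from saline by 1.03, 0.62, 0.15 and -0.03, against 1.52 for the one used.

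Of 36 other measured genes of replication, 11 rose in the triple group against saline and 0 fell, with a median of 0.39. Asf1b, a histone chaperone, rose by 1.48, Wdhd1, which couples helicase and polymerase alpha, by 0.99, and Slbp, which binds histone mRNA, by 0.47 (limma adjusted p = 0.000654, 0.00101 and 0.00271). Against SD-101+anti-PD-1, 5 of 36 rose, among them Wdhd1 by 0.82, Topbp1, an activator of the checkpoint kinase Atr, by 0.66, and Dbf4, the partner of the origin-firing kinase Cdc7, by 0.83. Timeless, a fork protection gene, fell by 0.66 with SD-101+anti-PD-1 against SD-101 (limma adjusted p = 0.0148). It was the 1 gene of this list called in the comparisons without the triple group.

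Of 20 E2F family, pocket protein and G1 control genes, 3 rose in the triple group against saline and 0 fell, with a median of 0.20. The activator E2f1 rose by 1.05, its partner Tfdp1 by 0.63 and the pocket protein gene Rbl1 by 0.55 (limma adjusted p = 0.00874, 0.0256 and 0.00368). Rbl1, which restrains E2F factors, also rose with SD-101+anti-PD-1, by 0.56 (adjusted p = 0.00201). Tfdp1 rose against SD-101+anti-PD-1 by 0.76 (adjusted p = 0.0239). Rb1 differed by -0.42 from saline and did not pass (adjusted p = 0.105).

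Of 23 genes of mitosis, the step after replication, 21 rose in the triple group against saline and 0 fell, with a median of 1.68. Kif11, a spindle motor, rose by 1.90, Mki67, the proliferation marker Ki-67, by 1.77, and Cdca3, a cell division gene, by 1.70 (limma adjusted p = 0.000638, 0.00101 and 0.0011). Against SD-101+anti-PD-1, 5 of 23 rose, with a median of 1.18, among them Kif11 by 1.70, Cdca3 by 1.21 and Nusap1, a spindle protein, by 0.97 (adjusted p = 0.00493, 0.0244 and 0.0363). Mki67 also rose with SD-101+anti-PD-1 against saline, by 0.88 (adjusted p = 0.0473). The E2F strings were in 1 of 23 mitosis windows (4.35%), and CCAAT in 19 of 23 (82.6%). Whether these lists differ from the replication genes was not tested.

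Markers of other cell types differed between arrays and groups, and their part in these results was not tested beyond the covariate fits given here. The fit with 4 covariates cannot separate them from the treatments. In the triple group Krt8 read 10.48, 11.70, 9.74 and 9.98 and with saline 10.06, 9.58, 8.20, 10.85 and 7.10. Its difference of 1.32 did not pass the test (limma adjusted p = 0.217). Of 12 lung epithelial and carcinoma genes 1 rose in the triple group against saline, and all 12 were higher in group mean, with a median log2 difference of 0.56. Their mean log2 level was 8.48 to 8.78 in the triple group against 6.74 to 8.66 with saline. The log2 of their summed level was 13.97 to 14.15 against 13.15 to 14.37. Compared with SD-101+anti-PD-1, 5 of the 12 were higher and 7 lower in the triple group. The median there was -0.33, and 0 passed in limma. The 2 arrays with the highest Krt8 and Krt18, triple replicate 2 and Saline-CTRL replicate 4, also had the highest replication mean of their groups, 8.22 and 7.31. In the other groups the highest arrays differed. With SD-101 the keratin mean was highest on replicate 2 and the replication mean on replicate 5. With SD-101+anti-PD-1 they were highest on replicates 2 and 3. The lowest array was the same in both means with SD-101 (replicate 1, 8.11 and 6.78) and SD-101+anti-PD-1 (replicate 5, 9.38 and 6.87). The lowest arrays differed with saline (replicates 5 and 3) and in the triple group (replicates 3 and 1). Triple replicate 1, second in its group in keratins (10.49), had the lowest replication mean there. With the mean of Krt8 and Krt18 as a covariate, 19 replication genes rose against saline and 8 against SD-101+anti-PD-1, with medians of 0.69 and 0.66.

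Neutrophil genes were high on Saline-CTRL replicate 1 and triple replicate 1, with means of 10.16 and 9.15 over 8 genes. The mean was 6.06, 3.74 and 5.85 on the other triple arrays and 3.26 to 3.61 on the other saline arrays. In group means 8 of 8 were higher in the triple group than with SD-101+anti-PD-1 and 7 of 8 higher than with saline, by medians of 1.42 and 0.75. Of these 0 passed the test in limma. At an unadjusted p under 0.05 there were 0 and 1, and 3060 and 3560 of all 17097 genes. The log2 of their summed level was 7.10 to 13.66 in the triple group and 6.45 to 14.36 with saline. With their mean as a covariate, 28 replication genes rose against saline and 5 against SD-101+anti-PD-1. With the T cell identity mean as a covariate the counts were 36 and 26. All 10 endothelial genes fell in the triple group and in SD-101+anti-PD-1 against saline, by medians of 2.21 and 3.50 on the log2 scale. The log2 of their summed level was 9.81 to 11.24, 8.59 to 9.73 and 11.23 to 13.32 in the 3 groups. All 10 were higher in the triple group than with SD-101+anti-PD-1, by a median of 1.28. Of these 0 passed in limma, and 7 had an unadjusted p under 0.05, as had 3060 of all 17097 genes. Of 7 CD4 and regulatory T cell genes, Foxp3 alone rose in the triple group, by 0.59 against saline and 0.63 against SD-101+anti-PD-1 (limma adjusted p = 0.0156 and 0.0265). Its probe set was dim, with group means of 3.59 with saline, 3.55 with SD-101+anti-PD-1 and 4.18 in the triple group. The lowest value on the scale was 1.78.

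**Figure D4:**
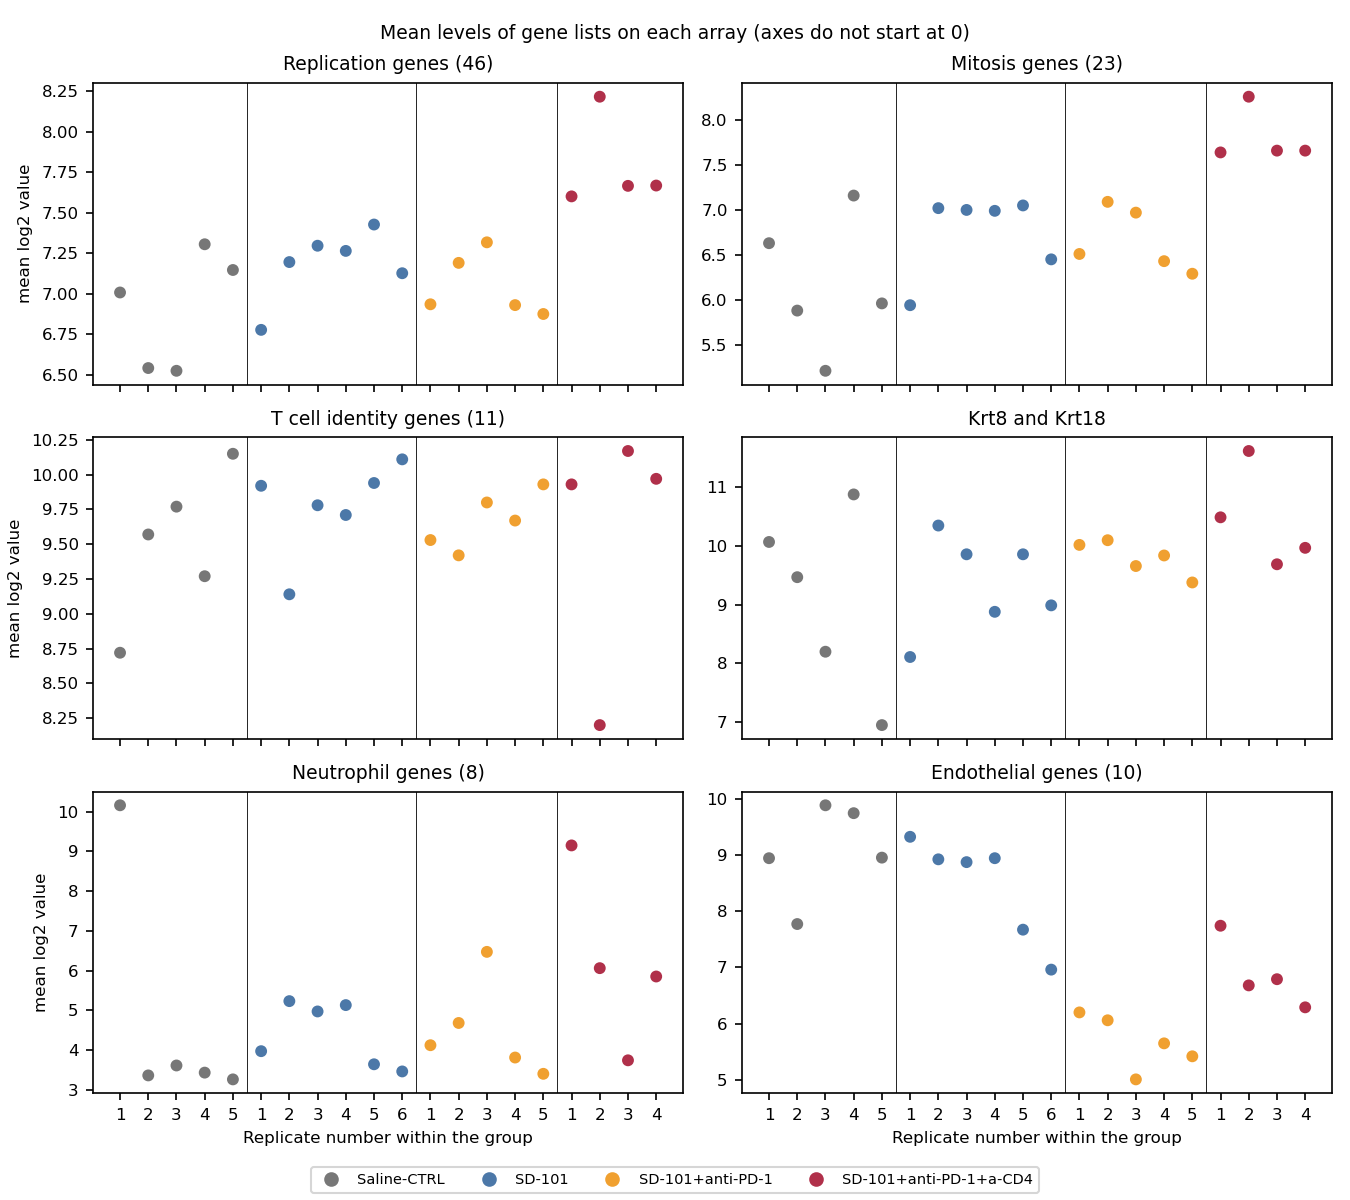
Mean log2 level of 6 gene lists on each array (points, coloured by group), with the number of genes in brackets. The replication and mitosis lists are highest on the 4 triple arrays, T cell identity is lowest and Krt8 and Krt18 highest on triple replicate 2, neutrophil genes are highest on Saline-CTRL replicate 1 and triple replicate 1, and endothelial genes are lowest with SD-101+anti-PD-1.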

How the data were processed

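RNA of 20 samples was measured on Affymetrix mouse expression arrays. The authors deposited 1 table of log2 values, made with RMA in affy per the submitters' processing notes, which also name limma and build mm8 without versions. Values ran from 1.78 to 13.44. RMA sets background and scale over all probes, so levels are relative within the table. Of 45141 probe sets, 28898 had a single gene symbol, 551 several and 15692 none. A gene took its single-symbol probe set of highest mean, which gave 17097 genes. Group means of all 4 groups were fitted together with limma 3.58.1 (lmFit and eBayes, R 4.3.3), and 5 comparisons were read from that fit, with Benjamini-Hochberg adjustment over all genes and a threshold of 0.05. Exact permutation tests were 2-sided (scipy 1.17.1). The fit was run on simulated data with independent noise for each gene and array. Shifts shared by many genes of an array were not simulated. Precision is limited by the number of arrays, 4 to 6 a group.

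The genes and all lists were chosen with earlier results of these data known. Values on every array (for SD-101 the lowest, median and highest) were given for genes called at the smallest adjusted p, for the 2 highest and 2 lowest differences of each comparison, and for 1 gene of each remaining role. From each further list up to 3 called genes were named per comparison, by smallest adjusted p. Sample numbers shared between groups are not known to pair the samples. Arrays of the same number, compared by their deviations from group means, correlated at -0.39 to 0.52. Arrays of unlike number were not set beside them, so pairing was not tested. Alternatives covered normalization, filtering, variance model, array weights, left-out arrays and, chosen after seeing the data, cell type scores. Table columns without a sample numbered 0.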

Additional observations from a re-analysis of the deposited data

Results flagged for a closer look

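Within groups of 4 to 6 arrays, an array was singled out where its gap to the nearest other array, divided by the range of the group, exceeded the 95% critical value of Dixon's test. Chance does this in about 1 of 20 independent groups, and it happened in 17 of 188 here. These 188 share the same 20 arrays and are not independent, so the rates cannot be compared directly. Triple replicate 2 gave 9 of the 17, always as the highest array. The ratios were 0.973 for Chaf1b, 0.945 for Tk1, 0.938 for Pola2, 0.934 for Dut, 0.899 for Mcm10, 0.882 for Rfc3, 0.852 for Pold2 and 0.847 for Gins1, and 0.891 for the mean over all replication genes. The levels behind them were 7.07 for Chaf1b, 8.87 for Tk1 and 7.32 for Mcm10, with those of the other genes given above. This array also had the lowest T cell identity mean (8.20) and the highest Krt8 and Krt18 levels, and the part of these in the gene levels was not tested apart from the covariate fits.

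SD-101+anti-PD-1 replicate 3 was singled out as the highest for Rfc2 (ratio 0.833), Pola1 (0.777) and Clspn (0.733). Saline-CTRL replicate 4 was the highest for Rfc3 (0.92) and for Rpa3 (0.758), and Saline-CTRL replicate 5 for Mcm4 (0.8, at a level of 9.28). The lowest arrays singled out were SD-101 replicate 1 for Dut (0.645) and SD-101 replicate 2 for Rpa1 (0.635).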

How the results depend on the processing

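The count of replication genes called in the triple group against saline (32) was 12 with only these 2 groups in the fit, 19 with the mean of Krt8 and Krt18 as a covariate, 21 without the 2 arrays of lowest T cell identity, 0 with 4 cell type scores and 21 to 35 with 1 array left out. Against SD-101+anti-PD-1 (15) it was 28 with array weights, 26 with the T cell identity score, 5 with the neutrophil score, 8 with Krt8 and Krt18, 0 with 4 cell type scores or without the 2 arrays, and 0 to 16 with 1 array left out. For SD-101+anti-PD-1 against saline (1) it was 0 after centring the arrays, after quantile normalization and with 4 cell type scores, 2 with array weights and 0 to 1 with 1 array left out. In that comparison the Ccne1 difference turned to -0.27 with 4 cell type scores. SD-101 against saline gave 1 call with array weights, and SD-101+anti-PD-1 against SD-101 gave 2 with array weights and 1 with only these 2 groups. With the replicate number as a block the counts were 28 and 9 for the triple group, and 0, 1 and 0 for SD-101 against saline, SD-101+anti-PD-1 against saline and SD-101+anti-PD-1 against SD-101. The replicate numbers are not known to pair samples. The cause of these changes was not tested. The other alternatives kept each count within 1.5 times. Dim probe sets such as those of Orc1 and Ccne2 limit what could be seen of these genes.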
